A study of Mus musculus with 9 samples.

Results

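The genes described here encode 3 connexins, 1 pannexin and 3 ion channels that respond to mechanical force. They are Gja1 (connexin 43), Gja4 (connexin 37), Gja5 (connexin 40), Panx1 (pannexin 1), Piezo1, Piezo2 and Trpv4. They were chosen by symbol, with earlier results of these data known. All 7 were found among the 23018 genes of the count table. The libraries come from lymphatic endothelial cells (LECs) of 3 tissues: the meninges, the diaphragm and the skin. The mice were untreated wild-type C57BL/6 males, 10 weeks old, and no group carried an allele or an agent that another lacked. Cells were taken by flow cytometry as negative for the leukocyte antigen CD45 and positive for CD31 and podoplanin. Each tissue gave 3 libraries, and nothing in the labels says whether these came from separate animals, so p-values measure only the spread between libraries.

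Connexins form hexameric half-channels, which dock between neighbouring cells as gap junctions and pass ions and small metabolites. Pannexin 1 forms single-membrane channels that release ATP. In lymphatic vessels, connexins 37 and 43 are required for normal valves, and Gja4 is a marker of valve cells and of collecting vessels. PIEZO1 and PIEZO2 are cation channels opened by membrane tension: PIEZO1 is needed in LECs for valve formation and upkeep, and PIEZO2 is best known from touch-sensing neurons and Merkel cells. TRPV4 is a calcium-permeable channel opened by heat, swelling and lipid messengers downstream of flow.

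The promoters of Gja4 and Gja1 are shown because the ratio of these connexins within a library was compared across tissues. The stretches are the 250 bases before the annotated start, read from RefSeq on build GRCm38.p6 in the direction of transcription. The Gja4 stretch lies at chr4:127314040-127314289 on the minus strand and the Gja1 stretch at chr10:56377050-56377299 on the plus strand. Capitals mark the only matches, on either strand, to 4 short motifs of factors named in flow and valve biology: CACCC (KLF factors), GATAA (GATA factors), TAAACA (FOX factors) and TGANTCA (AP-1).
Gja4: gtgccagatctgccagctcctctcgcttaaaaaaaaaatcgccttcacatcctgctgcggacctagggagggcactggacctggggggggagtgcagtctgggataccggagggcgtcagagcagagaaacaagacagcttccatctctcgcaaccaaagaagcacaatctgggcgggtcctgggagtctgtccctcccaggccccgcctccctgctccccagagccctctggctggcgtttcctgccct
Gja1: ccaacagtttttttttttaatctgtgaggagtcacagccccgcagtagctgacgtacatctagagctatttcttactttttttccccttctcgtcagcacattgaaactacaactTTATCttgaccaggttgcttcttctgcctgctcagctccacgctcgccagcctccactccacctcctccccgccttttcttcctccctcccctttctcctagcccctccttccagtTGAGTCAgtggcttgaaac
The Gja1 stretch held 1 GATA match, which reads TTATC on this strand and begins 135 bases before the start, and 1 AP-1 match 19 bases before the start. The Gja4 stretch held none of the 4 motifs, which says only that these letters are not in this window. Its GC content was 61.2%. None of the 4 motifs contains another. Among 32851 mouse promoters of the same length, 52.01% held CACCC, 22.58% GATAA, 12.03% TAAACA and 6.75% TGANTCA. The KLF letters occurred 4 times before Gja5, 5 times before Trpv4, once before Piezo1 and not before Panx1, in windows of the same length whose GC content ran from 56.4% to 74.0%.

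Total counts per library ran from 26075366 to 34592850, and 13241 to 17245 genes had a count. All 10 LEC markers (Prox1, Pdpn, Flt4, Lyve1 and others) had counts in each of the 9 libraries. Their summed level, in CPM (normalised counts, scaled to the effective size of each library), was 6716 to 16440 in meninges, 15030 to 20600 in diaphragm and 20730 to 21370 in skin. The summed level of 10 fibroblast markers was 1479, 8358 and 8293 CPM in Meninges replicates 1, 2 and 3, against 652.9 to 1447 in diaphragm and 112.1 to 1065 in skin. The 8 arterial endothelial markers in the table summed to 363.7 to 608.1 CPM in meninges, 318.9 to 511.0 in diaphragm and 418.6 to 601.2 in skin, with Sox17 and Sema3g at 0 in skin. Blood capillary and venous markers were highest in Meninges replicate 1, at 1691 CPM, and Diaphragm replicate 1, at 1216 CPM, and lay between 544.1 and 834.7 elsewhere. In bulk RNA, fewer cells of a type and less RNA per cell cannot be told apart.

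In the tests across 14831 genes, Gja4 was the member with the largest difference in both meningeal comparisons among those with counts in every library, yet it missed the adjusted threshold. Piezo2 was the other member whose meningeal libraries all lay below those of both other tissues. Gja1 and Piezo1 were abundant in all 3 tissues, Trpv4 was low to moderate and varied within each tissue, and Panx1 and Gja5 were near or at 0 in most libraries. In edgeR's quasi-likelihood test, with p-values adjusted by Benjamini-Hochberg over all genes and a threshold of 0.05, no member was called in any of 4 comparisons. Of all genes tested, 0.344% were called for meninges against diaphragm, 1.32% for meninges against skin, 0.0405% for diaphragm against skin and 1.73% for meninges against the mean of both. At an unadjusted p under 0.05, 1 of the 6 members tested passed against diaphragm, 2 against skin, 1 between diaphragm and skin and 2 against the mean of both, where the shares of all genes were 10.1%, 13.8%, 11.8% and 13.6%. The DESeq2 Wald test called 1 member, Gja4, in each of the 3 meningeal comparisons, where it called 6.03% of all genes against diaphragm, 9.5% against skin and 8.74% against the mean of both. limma voom called 1 member, Piezo2, against skin and against the mean of both, where it called 2.79% and 4.98% of all genes. All of these shares were above those of edgeR. These comparisons share the meningeal libraries and are not independent of each other.

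**Figure D1:**
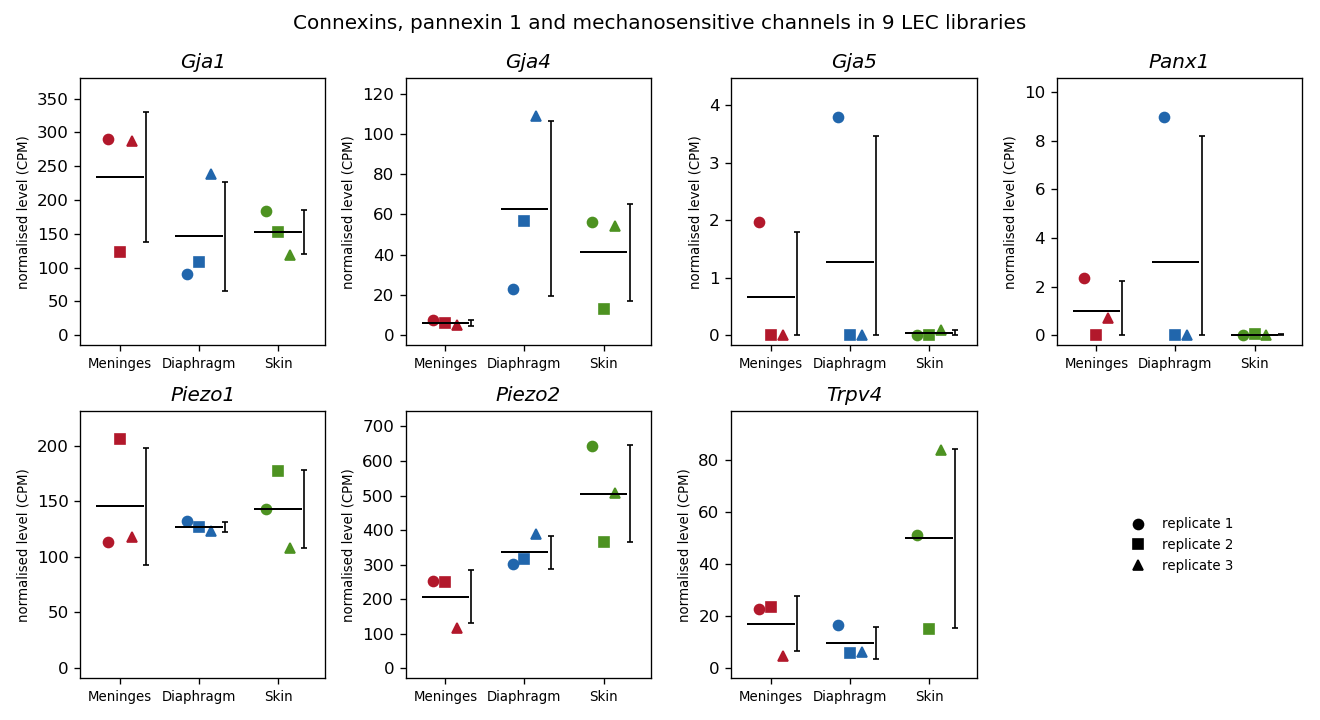
Level of each of the 7 genes in CPM (vertical axes, each with its own range) in the 9 libraries, by tissue; symbols give the replicate number, horizontal lines the tissue mean and bars 1 SD, drawn no lower than 0. The meningeal points lie below every other point for Gja4 and Piezo2, while Gja5 and Panx1 have no count in most libraries.

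Gja4 encodes connexin 37. In the meningeal libraries it stood at 7.70, 5.78 and 4.97 CPM. In the diaphragm libraries the values were 23.0, 56.5 and 109 CPM, and in the skin libraries 56.0, 13.0 and 54.2 CPM. All 3 meningeal libraries were below all 6 others, and the diaphragm and skin values overlapped. The means were 6.15 ± 1.40, 62.8 ± 43.4 and 41.1 ± 24.3 CPM in meninges, diaphragm and skin (n = 3 each, ± SD). Meningeal values therefore varied little, and those of the other tissues spread about as widely as their means. Behind them were 185 to 246 counts per meningeal library and 321 to 3044 in the others.

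For Gja4, the fitted difference was -3.35 on the log2 scale for meninges against diaphragm (SE 0.90, 95% interval -5.28 to -1.42), a level 10.2-fold lower, with an adjusted p of 0.202 in edgeR. Against skin it was -2.74 (SE 0.87, 95% interval -4.62 to -0.86), 6.68-fold lower, with an adjusted p of 0.184 in edgeR. Both intervals lay below 0 before adjustment, and neither difference passed over all genes. Against the mean of both tissues the log2 difference was -3.05 (SE 0.84), with an adjusted p of 0.0824 in edgeR. The DESeq2 Wald test gave -3.31 against diaphragm with an adjusted p of 0.00119, -2.74 against skin with 0.00893 and -3.02 against both with 0.000386. Gja4 therefore passed in DESeq2 and missed in edgeR with like fold changes. Diaphragm and skin differed by 0.61 (SE 0.82, 95% interval -1.16 to 2.38; adjusted p = 0.856 in edgeR). Leaving out any 1 library kept the meningeal difference between -3.75 and -2.69 against diaphragm and between -3.17 and -2.45 against skin, and edgeR called it in 0 of 9 such fits.

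The fibroblast markers summed to 1479, 8358 and 8293 CPM in Meninges replicates 1, 2 and 3 and to at most 1447 CPM elsewhere. Their part in the low Gja4 level was not tested. Gja4 stood at 7.70 CPM in Meninges replicate 1 and at 23.0 CPM in Diaphragm replicate 1, where the fibroblast sum was 1447 CPM. A pair of single libraries cannot decide the part of fibroblasts. The arterial marker sums of the 3 tissues overlapped, but some single markers did not. Sox17 and Unc5b were higher in every meningeal library than in every other, and Bmx and Hey1 were lower. Of the blood capillary and venous markers, Esm1, Plvap, Selp, Slco1a4 and, only just, Vwf were higher in this way, and Emcn was lower. The part of blood endothelial cells in the Gja4 level was not tested. Per 1000 LEC marker counts, Gja4 had 0.419 to 0.861 counts in meninges, below all other libraries except Skin replicate 2 at 0.629. With replicate 1 standing alone for the meninges, the log2 difference from diaphragm was -3.03.

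Gja1 encodes connexin 43, the most widely expressed connexin. Its meningeal libraries stood at 290.9, 122.4 and 287.9 CPM, the diaphragm libraries at 90.8, 108 and 239.2 CPM and the skin libraries at 184.1, 153.3 and 119.2 CPM. Meninges replicates 1 and 3 were the highest of the 9, and Meninges replicate 2 lay within the range of the other tissues. The means were 233.7 ± 96.4, 146.0 ± 81.1 and 152.2 ± 32.5 CPM (SD, n = 3 each). The log2 difference was 0.68 for meninges against diaphragm (SE 0.47, 95% interval -0.34 to 1.70; adjusted p = 0.775 in edgeR). Against skin it was 0.62 (SE 0.47, 95% interval -0.40 to 1.64; adjusted p = 0.68 in edgeR). The intervals reach from a slightly lower to an over 3-fold higher meningeal level. Gja1 is also made by fibroblasts, whose markers were high in Meninges replicates 2 and 3, and their part in the Gja1 level was not tested.

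**Figure D2:**
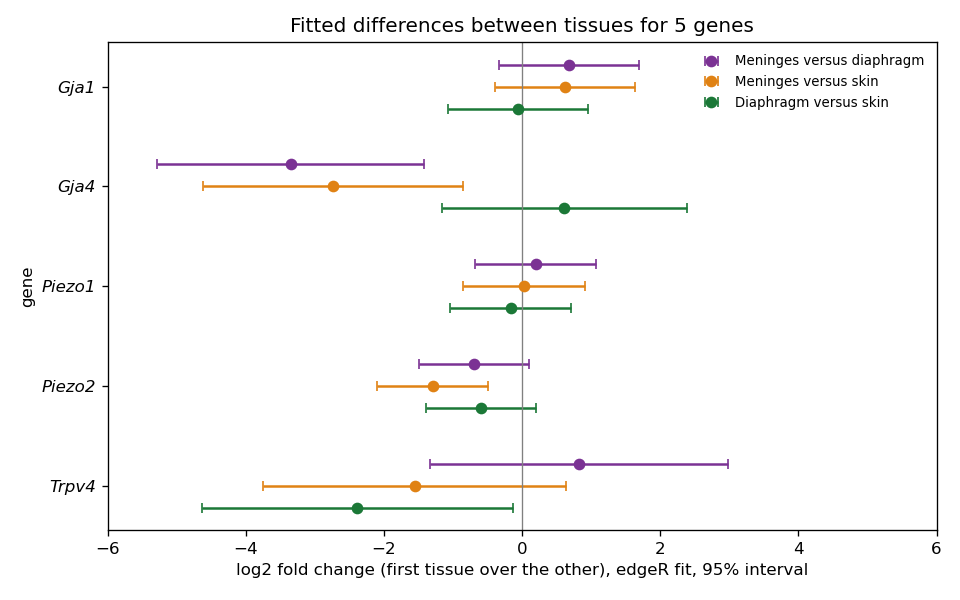
Fitted log2 fold change (horizontal axis, first tissue over the other) for 5 genes in 3 pairs of tissues, with 95% intervals from the edgeR fit; the vertical line marks no difference. Both meningeal intervals of Gja4 and the interval of Piezo2 against skin lie below 0, those of Gja1 and Piezo1 span it, and Panx1 is left out because most of its libraries had no count.

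The relation of Gja4 to Gja1 was also measured within each library, where library scaling cancels. Gja1 counts from other cells in a library do not cancel, and their part in the ratio was not tested. Per Gja4 count there were 37.6, 21.1 and 57.6 Gja1 counts in the meningeal libraries. The diaphragm libraries had 3.95, 1.91 and 2.19, and the skin libraries 3.29, 11.7 and 2.20. The meningeal libraries thus had the lowest share of Gja4 without overlap, and Skin replicate 2 was the nearest to them. On the log2 scale the mean ratio of Gja4 to Gja1 was -5.16 ± 0.73 in meninges, -1.35 ± 0.56 in diaphragm and -2.13 ± 1.26 in skin, with 3 libraries each and errors as SD. Tissue accounted for 83.3% of the variance of this ratio. An exact permutation test over the 280 partitions of the 9 libraries gave p = 0.0179, and 0.0357 after adjustment over the 2 ratios examined. The smallest p possible was 0.00357. The ratios were chosen with earlier results of these data known, and the adjustment does not cover that choice. With the replicate number as a block, the adjusted exact permutation p was above 0.05. The block allows far fewer arrangements than 280, so its smallest p is higher. There an adjusted p under 0.05 was possible only if both ratios reached that smallest p, so the block cannot decide the matter. By pair, the log2 ratio differed by -3.81 between meninges and diaphragm and by -3.02 between meninges and skin (exact permutation p = 0.1 each, two-sided, the smallest that 3 against 3 allows). Diaphragm and skin differed by 0.78 (exact permutation p = 0.5). The adjusted exact permutation p was above 0.05 without any 1 of 5 libraries: it was 0.0536 without Meninges replicate 1, 0.107 without Meninges replicate 2 or 3, 0.0714 without Diaphragm replicate 2 and 0.0643 without Diaphragm replicate 3.

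**Figure D3:**
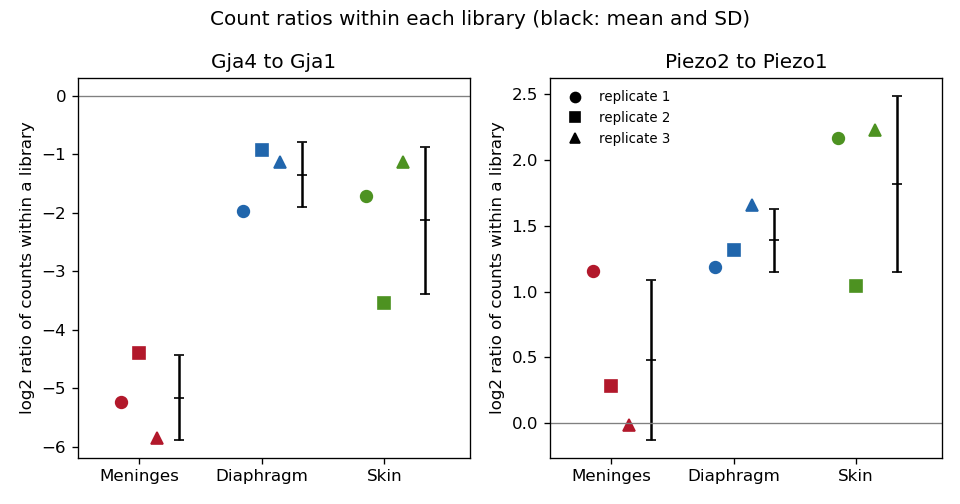
Log2 ratio of counts within each library (vertical axes) for Gja4 to Gja1 and for Piezo2 to Piezo1, by tissue; coloured symbols are libraries, black bars the mean and 1 SD, and the grey line marks equal counts. The meningeal Gja4 to Gja1 ratios, -5.85 to -4.40, lie below all others, while the meningeal Piezo2 to Piezo1 ratios, at most 1.16, lie just below those of diaphragm, at least 1.19, and overlap those of skin.

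Gja5 encodes connexin 40, known from arterial endothelium and the atrial conduction system. It had 63 counts (1.97 CPM) in Meninges replicate 1, 103 counts (3.80 CPM) in Diaphragm replicate 1, 2 counts in Skin replicate 3 and 0 in the other 6 libraries. It failed the filter on low counts and was not tested. By counting error alone, a count of 0 allows up to 3 counts, or 0.0793 to 0.137 CPM depending on the library. The libraries with Gja5 counts in meninges and diaphragm were those with the highest blood capillary and venous marker sums of their tissue, at 1691 and 1216 CPM. Diaphragm replicate 1 also had the highest mesothelial sum, 1194 CPM against 45.8 and 86.3 in the other diaphragm libraries, and the lowest arterial sum of its tissue, 318.9 CPM. The part of these cells in the Gja5 and Panx1 counts of this library was not tested. Gja5 shares exon sequence with Gpr89 on the opposite strand, so reads of the pair may not be told apart, the strand setting being not given in the sources used here.

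Panx1, the ATP release channel, showed the same kind of scatter. It had 75, 0 and 26 counts in the meningeal libraries, 244, 0 and 0 in the diaphragm libraries and 0, 1 and 0 in the skin libraries. The highest level was 8.99 CPM, in Diaphragm replicate 1. The gene passed the filter and was called in no comparison, and its biological coefficient of variation in the fit was 2.42, against 0.412 to 0.859 for Gja1, Gja4, Piezo1, Piezo2 and Trpv4. With 1 library deciding the sign against diaphragm, no fold change is given as a result.

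Among the other connexins tested, 2 had counts in meningeal libraries alone. Of 19 further connexin and pannexin genes listed, 12 were in the table and 5 passed the filter. Gjb6, which encodes connexin 30, known from astrocytes, inner ear and skin, was the only one that edgeR called. It stood at 18.5, 12.8 and 10.7 CPM in the meningeal libraries (592, 410 and 405 counts) and had no count in any diaphragm or skin library. Taking 3 counts over the group as the floor, its meningeal mean was 381-fold above the floor of diaphragm and 338-fold above that of skin. This floor covers counting error only. Panx1 varied between 0 and many counts within diaphragm, so these folds are no firm bounds. Its adjusted p in edgeR was 0.0347 against the mean of both, 0.244 against diaphragm and 0.135 against skin, and the first was above 0.05 when any 1 of the 9 libraries was left out. Gjb6 and Gjb2 passed the filter through their meningeal libraries alone, so these p-values are given as a description. Of 11 meningeal fibroblast markers, Slc47a1 (46.7, 55.8 and 83.6 CPM in the meningeal libraries), Zic4, Alx4 and Foxd1 had no count in diaphragm or skin. These markers were lowest in Meninges replicate 1, where Gjb6 was highest. Crabp2 and Slc6a13 also had no count outside meninges, and at most 1.06 CPM within it. Foxc1, Aldh1a2, Ptgds, Zic1 and Slc22a6 did have counts in diaphragm or skin, Foxc1 up to 143.6 CPM in Skin replicate 1. The part of meningeal fibroblasts in the Gjb6 and Gjb2 counts was not tested.

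Gjb2 encodes connexin 26, which can share channels with connexin 30, and 1 annotated gene lies between Gjb2 and Gjb6 in the RefSeq gene order. It had 207, 18 and 878 counts in the meningeal libraries and 0 in the other 6, with an adjusted p of 0.0591 in edgeR against the mean of both. Gjb2 was chosen for mention after its values were seen, as were Gjc1 and Gjc3. Gjc1 (connexin 45) stood at 10.7, 45.8 and 5.52 CPM in meninges, 88.0, 9.32 and 50.9 in diaphragm and 32.2, 8.44 and 0.274 in skin, so the tissues overlapped. Gjc3 had no count in diaphragm and from 0 to 36.2 CPM in skin. The median log2 difference of the 5 tested genes, 9.26 against diaphragm, rests on genes with no count in that tissue and is no bound; the median over all genes was 0.0474.

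**Figure D4:**
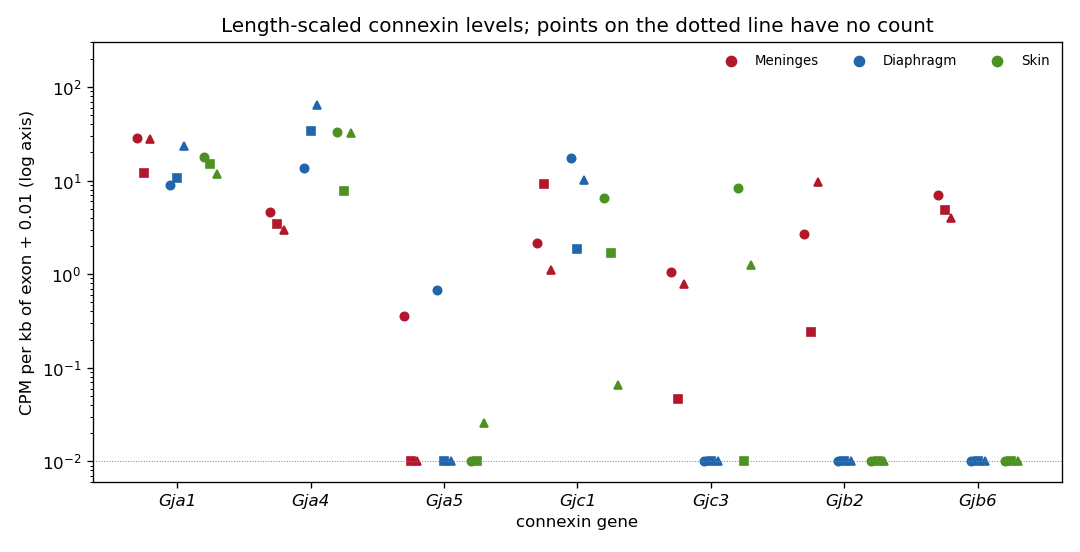
Level of 7 connexin genes in CPM per kilobase of exon, with 0.01 added (vertical log axis), in the 9 libraries; colours give the tissue, symbols the replicate number, and points on the dotted line had no count. Gja1 has counts throughout, Gja4 is lowest in the meningeal libraries, and Gjb2 and Gjb6 have counts in meningeal libraries alone.

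Levels of different genes were compared per kilobase of exon. In meninges the order of mean levels was Gja1 at 22.8 ± 9.40 CPM per kilobase, Piezo1 at 14.7 ± 5.29, Piezo2 at 12.02 ± 4.49, Trpv4 at 4.17 ± 2.595 and Gja4 at 3.65 ± 0.833 (SD, n = 3). In meninges, neighbours in this order were within 1 SD of each other except Piezo2 and Trpv4, taking the larger SD of each pair. In diaphragm it was Gja4 at 37.3 ± 25.7, Piezo2 at 19.5 ± 2.76, Gja1 at 14.2 ± 7.91, Piezo1 at 12.8 ± 0.445 and Trpv4 at 2.35 ± 1.52 CPM per kilobase. In skin it was Piezo2 at 29.5 ± 8.12, Gja4 at 24.4 ± 14.4, Gja1 at 14.8 ± 3.16, Piezo1 at 14.4 ± 3.52 and Trpv4 at 12.3 ± 8.44 CPM per kilobase. By the larger SD of each pair, the diaphragm neighbours Piezo1 and Trpv4 differed by more than 1 SD and the others did not. In skin no neighbours did. By the smaller SD more pairs differ, such as Gja1 and Piezo1 in diaphragm. The genes were measured in the same libraries, and these SDs do not use that pairing. Gja4 was thus the lowest of these 5 in meninges, and per kilobase above Gja1 on average in the other tissues. Panx1 and Gja5 averaged under 1 CPM per kilobase in every tissue.

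Piezo2 stood at 251.4, 250.1 and 117.3 CPM in the meningeal libraries. The diaphragm libraries had 300.2, 315.8 and 388.9 CPM and the skin libraries 644.8, 366.0 and 506.1 CPM. All meningeal values were below all others, and Skin replicate 2 fell within the diaphragm range. The means were 206.2 ± 77.1, 335.0 ± 47.4 and 505.6 ± 139.4 CPM (SD, n = 3 each). The log2 difference between meninges and skin was -1.29 (SE 0.37, 95% interval -2.10 to -0.49), 2.45-fold lower, with an adjusted p of 0.133 in edgeR. limma voom with quality weights gave -1.43 with an adjusted p of 0.0373, so the call depends on the test. Against diaphragm the difference was -0.70 (SE 0.37, 95% interval -1.49 to 0.09; adjusted p = 0.586 in edgeR), and between diaphragm and skin -0.59 (SE 0.37, 95% interval -1.39 to 0.20; adjusted p = 0.567 in edgeR). Against the mean of both it was -0.997 (SE 0.332), with an adjusted p of 0.172 in edgeR and 0.0395 in limma voom. Gja4 and Piezo2 were thus 2 of 6 tested members without overlap between meninges and each other tissue, both on the lower side. Of all genes, 6.7% were lower in meninges without overlap against diaphragm, 7.34% against skin and 2.16% against both tissues at once. No member separated diaphragm from skin, where 13.5% of all genes did.

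Merkel cells and sensory neurons also make Piezo2. The 5 keratinocyte and Merkel cell markers in the table summed to 137.4 CPM in Skin replicate 2, of which Krt14 made 107.4, and to at most 2.08 CPM in every other library. The Merkel cell marker among them, Krt20, was at 0 in all skin libraries. Schwann cell and neuron markers summed to 82.9 to 252.4 CPM in meninges, 9.99 to 36.1 in diaphragm and 6.63 to 28.9 in skin. The part of these cells in the Piezo2 level was not tested. The LEC marker sum was lowest in Meninges replicate 2 at 6716 CPM. Per 1000 LEC marker counts, Piezo2 had 15.3, 37.2 and 9.89 counts in meninges and 16.6 to 30.2 in the other tissues. Meninges replicate 2 was thus the highest library on that scale, while the other meningeal libraries stayed below all of diaphragm and skin.

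Piezo1, by contrast, had nearly level means. Its libraries stood at 112.9, 206.2 and 117.7 CPM in meninges, 131.8, 126.4 and 123.1 in diaphragm and 143.2, 177.6 and 107.6 in skin. The ranges overlapped fully, and the 2 highest values were those of Meninges replicate 2 and Skin replicate 2. The log2 difference was 0.20 for meninges against diaphragm (SE 0.41, 95% interval -0.68 to 1.07; adjusted p = 0.966 in edgeR) and 0.03 against skin (SE 0.41, 95% interval -0.85 to 0.91; adjusted p = 0.993 in edgeR). Diaphragm and skin differed by -0.17 (SE 0.41, 95% interval -1.05 to 0.71; adjusted p = 0.937 in edgeR). These intervals leave room for differences of about 2-fold either way. Exons of Piezo1 overlap Ctu2 on the opposite strand, so some of its counts may belong to that gene.

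The ratio of Piezo2 to Piezo1 counts was 2.23, 1.21 and 0.996 in the meningeal libraries, 2.28, 2.50 and 3.16 in diaphragm and 4.50, 2.06 and 4.70 in skin. The meningeal ratios lay below the diaphragm ratios, though Meninges replicate 1 only just, and the skin ratios overlapped those of both other tissues. The log2 ratio averaged 0.48 ± 0.61, 1.39 ± 0.24 and 1.82 ± 0.67 (SD, n = 3 each). Tissue accounted for 61.7% of its variance (exact permutation p = 0.0821, also 0.0821 after adjustment). By pair, meninges and diaphragm differed by -0.91 (exact permutation p = 0.1, the smallest possible), meninges and skin by -1.34 (exact permutation p = 0.2) and diaphragm and skin by -0.43 (exact permutation p = 0.4). Without 1 library the adjusted exact permutation p ran from 0.0214, without Skin replicate 2, to 0.157.

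Trpv4 stood at 22.8, 23.3 and 4.78 CPM in the meningeal libraries, 16.7, 5.95 and 6.05 CPM in diaphragm and 51.1, 15.02 and 83.8 CPM in skin. The libraries of each tissue differed several-fold among themselves, and every pair of tissues overlapped. The means were 17.0 ± 10.6, 9.58 ± 6.20 and 49.98 ± 34.4 CPM (SD, n = 3 each). The log2 difference between diaphragm and skin was -2.38 (SE 1.046, 95% interval -4.63 to -0.13), 5.22-fold lower, with an adjusted p of 0.401 in edgeR. It was 0.83 for meninges against diaphragm (SE 1.001, 95% interval -1.33 to 2.98; adjusted p = 0.921 in edgeR) and -1.56 against skin (SE 1.02, 95% interval -3.75 to 0.63; adjusted p = 0.587 in edgeR). The Trpv4 intervals were the widest of these 5 genes.

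Over the 6 members tested, the median log2 difference was -0.25 for meninges against diaphragm, -0.63 against skin, -0.11 between diaphragm and skin and -0.13 against the mean of both. The medians over all genes were 0.0474, 0.0803, 0.0109 and 0.133. The member medians mix the low meningeal Gja4 and Piezo2 with the higher meningeal means of Gja1.

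Other channels gated by force or cell volume were also listed: 23 of 27 were in the table and 17 were tested. None was called by edgeR. At an unadjusted edgeR p under 0.05, 2, 4, 2 and 4 of the 17 passed in the 4 comparisons. The shares of all genes were 10.1%, 13.8%, 11.8% and 13.6%. Counted over the 4 comparisons together, the DESeq2 Wald test called 2 (Kcnk2 and Pkd1) and limma voom 2 (Kcnj2 and Pkd1). In the 3 meningeal comparisons DESeq2 called 6.03%, 9.5% and 8.74% of all genes. Between diaphragm and skin it called 640 higher and 417 lower of 14985. The limma voom shares were 2.79% against skin and 4.98% against the mean of both. Against diaphragm limma voom called 113 higher and 87 lower of 14831, and between diaphragm and skin 0 and 1. A share for 1 comparison is not directly comparable with a count over 4. The 3 with the highest average CPM, which favours long transcripts, were Pkd1, Trpm7 and Pkd2. Per kilobase of exon, Tmem63a (mean over the tissues 24.8 CPM per kilobase) was above Pkd1 (22.4), Lrrc8a (19.3), Trpm7 (18.3) and Pkd2 (15.7). Pkd1, encoding polycystin 1, stood at 220.7 to 298.4 CPM in meninges, 182.9 to 288.3 in diaphragm and 446.9 to 846.5 in skin. Its skin values were all above the others, with a log2 difference of -1.42 for meninges against skin (SE 0.34; adjusted p = 0.0637 in edgeR) and -1.54 for diaphragm against skin (SE 0.34; adjusted p = 0.137 in edgeR). Trpm7, a channel fused to a kinase, averaged 181 ± 36.2, 247 ± 172 and 193 ± 54.6 CPM, and Pkd2, the partner of polycystin 1, 193 ± 98.6, 167 ± 68.9 and 118 ± 43.0 CPM in meninges, diaphragm and skin (SD, n = 3 each), both with overlap. The list's median log2 difference was 0.01 against diaphragm, 0.50 against skin and 0.15 between diaphragm and skin.

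Of 7 genes for proteins reported to bind or tune PIEZO channels, 5 were tested. None was called by edgeR, with 1, 1, 2 and 1 of the 5 at an unadjusted p under 0.05 in the 4 comparisons. The shares of all genes at that p were 10.1%, 13.8%, 11.8% and 13.6%. DESeq2 and limma voom each called 1, Mdfi, counted over the 4 comparisons together. Their shares of all genes given above are for single comparisons. Mdfic, whose product binds PIEZO channels and whose loss causes lymphatic disease, stood at 117.1, 24.97 and 59.0 CPM in meninges and 135.5 to 179.9 CPM in diaphragm, without overlap (log2 difference -1.25, SE 0.55; adjusted p = 0.452 in edgeR). Its skin values, 69.2 to 101.2 CPM, overlapped those of meninges. Atp2a2, the calcium pump SERCA2, averaged 300 ± 54.8, 230 ± 77.4 and 232 ± 62.0 CPM, and Mtmr2, a lipid phosphatase, 103 ± 67.6, 82.3 ± 53.1 and 226 ± 215.9 CPM (SD, n = 3 each). Neither separated the tissues.

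Among 11 genes for proteins that anchor or traffic connexins, Cav1 was the only one called, lower in all 3 meningeal comparisons. Cav1 encodes caveolin 1, the coat protein of caveolae. It stood at 202.8, 90.9 and 166.5 CPM in meninges, 1055, 802.1 and 909.2 in diaphragm and 485.4, 511.2 and 378.1 in skin. The 3 tissues did not overlap. The log2 difference was -2.59 against diaphragm (SE 0.35; adjusted p = 0.00537 in edgeR), called without any 1 library. Against skin it was -1.58 (SE 0.34; adjusted p = 0.036 in edgeR), and this call was lost in 7 of 9 fits without 1 library, kept without Diaphragm replicate 1 or Meninges replicate 1. With replicate 1 standing alone for the meninges, no Cav1 call remained, at -2.19 and an adjusted p of 0.112 in edgeR against diaphragm.

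The list of 32 flow response and valve genes was tested in full. In edgeR, 2 of 32 were lower in meninges than in diaphragm, 3 were lower than in skin, and none was called between diaphragm and skin. At an unadjusted p under 0.05 there were 9, 12, 3 and 11 of the 32 in the 4 comparisons, against the 10.1%, 13.8%, 11.8% and 13.6% of all genes given above. Against the mean of both, 3 were lower and 1 was higher. Those lower in meninges were Efnb2 (ephrin-B2, an arterial, collecting vessel and valve ligand), Sema3a (a guidance cue for valve leaflets) and Klf4 (a flow-induced transcription factor). Efnb2 averaged 46.9 ± 12.3 CPM in meninges against 412 ± 125 in skin (SD, n = 3 each; log2 difference -3.13, SE 0.41; adjusted p = 0.00232 in edgeR). Sema3a averaged 86.0 ± 17.4 against 449 ± 106 CPM (log2 difference -2.38, SE 0.35; adjusted p = 0.00561 in edgeR). Both skin calls were kept without any 1 library, whereas against diaphragm Efnb2 was not called without Meninges replicate 3 and Sema3a was called in 3 of 9 such fits.

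Klf4 stood at 66.8, 18.1 and 60.3 CPM in meninges, 248.0, 110.2 and 217.1 in diaphragm and 520.6, 396.2 and 159.3 in skin. It was called against skin (log2 difference -2.89, SE 0.59; adjusted p = 0.0277 in edgeR), but not without Meninges replicate 2 or 3 or Skin replicate 1, where the adjusted p was 0.0828, 0.0782 and 0.0893. Against the mean of both, its call held in 3 of 9 fits without 1 library. Fat4, an atypical cadherin of planar polarity and valves, was the 1 list gene called higher in meninges, against the mean of both (log2 difference 2.44, SE 0.49; adjusted p = 0.0218 in edgeR). It stood at 187.1 CPM in Meninges replicate 1 and at 1306 and 911 CPM in replicates 2 and 3, the libraries with fibroblast sums of 8358 and 8293 CPM. The part of fibroblasts in the Fat4 level was not tested. Fat4 was not called in limma voom (adjusted p = 0.0604). The edgeR call was lost without Meninges replicate 2 (adjusted p = 0.155 in edgeR) or 3 (0.0877), and with replicate 1 standing alone for the meninges the Fat4 difference was 0.33. The list's median log2 difference was -0.34 against diaphragm and -0.54 against skin, below the all-gene medians given above. The list was not tested as a set and holds LEC genes such as Prox1 and Flt4. The LEC marker sum was also lower in meninges, at 6716 to 16440 CPM against 20730 to 21370 in skin, and fibroblast markers were higher; their part in the list's median was not tested.

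**Figure D5:**
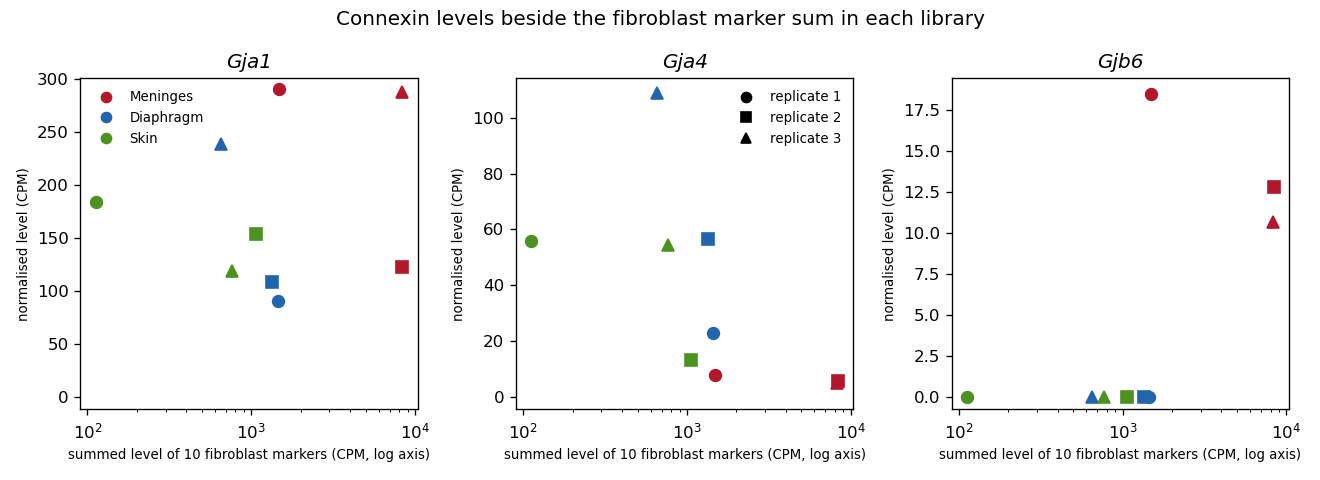
Levels of Gja1, Gja4 and Gjb6 in CPM (vertical axes) against the summed level of 10 fibroblast markers in CPM (horizontal log axis), 1 point per library; colours give the tissue and symbols the replicate number. Meninges replicate 1 lies at 1479 CPM of fibroblast markers, left of the other meningeal libraries, with Gja4 at 7.70, Gja1 at 290.9 and Gjb6 at 18.5 CPM; the part of fibroblasts in these levels was not tested.

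For each member tested, the genes with the most similar profile over the 9 libraries were taken from 8718 candidates, by the root mean square difference of mean-centred log2 CPM. Gja4 was nearest to Tll1 (0.70 log2 units), an extracellular protease gene, and Fgl2 (0.74). Tll1 stood at 7.19 to 22.2 CPM in meninges, 90.1 to 124 in diaphragm and 52.6 to 170 in skin, so it too was without overlap lower in meninges. Gja1 was nearest to Emid1 (0.23) and Tmed2 (0.29), and Piezo1 to Col4a3bp (0.20) and Cmip (0.21). Piezo2 was nearest to Frmd4b and Tubb4b (0.27 each), Trpv4 to Sec11a (0.59) and Brd9 (0.60), and Panx1 to Pcdhgb2 (1.17) and Vamp7 (1.45). The distances for Panx1 and Gja4 were the largest, as was the spread of these genes over the libraries, at SDs of 2.54 and 1.55 log2 units.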

How the data were processed

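RNA of sorted lymphatic endothelial cells was, per the labels' protocols, extracted with the PicoPure kit and amplified with the Ovation kit of NuGEN. The values are the deposited read counts per gene, 1 column per library, all 9 used; per the submitters' processing notes the authors used FastQC, STAR and HTSeq on mm9. The sources used here do not give their versions, the annotation or the strand setting.

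Genes with low counts were removed (filterByExpr), which left 14831 genes, of which 6 were members. Libraries were scaled by TMM, and edgeR 4.0.16 in R 4.3.3 fitted a quasi-likelihood model with 1 mean per tissue to the 9 libraries. Calls used Benjamini-Hochberg adjustment over all genes tested and a threshold of 0.05. The biological coefficient of variation over all genes was 1.243. The fit was also tested on simulated data, with 50 changed genes of each size drawn at random from the 14831. The filter, applied again, left 14163, and any changed gene it removed counted as missed. For meninges against diaphragm the fit found 1 of those changed 2-fold and 1 of those changed 4-fold. It found 11 of those changed 8-fold and 19 of those changed 32-fold. Ratios within libraries used 1 added count and an exact permutation test, one-sided by construction. Levels per kilobase used union exon lengths from GENCODE release 21 for mouse, and promoters came from RefSeq for 6 of the 7 members. Floors and intervals cover counting error or library spread only.

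The members, the 5 gene lists, the 12 marker lists and the tests were chosen with earlier results of these data known. The naming rule took all members, each list gene called in any comparison or else the 3 most abundant of its list, and the 2 genes nearest in profile to each member. Alternatives were DESeq2 1.42.0, other size factors, other filters, 2-tissue fits, the replicate number as a block, limma 3.58.1 voom with quality weights, a robust fit, other pseudocounts and each library left out; a fit in which replicate 1 stood alone for the meninges was added after seeing the data. Tables and plots used Python 3.11.15, pandas 2.3.3 and matplotlib 3.10.9. The result of 1 listed gene is not reported here.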

Additional observations from a re-analysis of the deposited data

How the results depend on the processing

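Of 438 alternative values for the members' log2 fold changes, 411 kept their direction and side of the threshold, 5 passed it and 22 changed sign. The member counts of 0 became 1 with DESeq2 in the 3 meningeal comparisons and 1 with limma voom against skin and against both, and stayed 0 to 0 without any 1 library. The sign changes were in uncalled differences. Without 1 library, Gja1 ran from -0.62 to 0.19 and Gja4 from -0.05 to 1.01 between diaphragm and skin, Panx1 from -3.10 to 7.86 against diaphragm and from -2.04 to 9.43 between diaphragm and skin, and Trpv4 from -0.66 to 0.08 against both. Piezo1 ran from -0.14 to 0.35 against diaphragm, -0.31 to 0.21 against skin, -0.34 to 0.02 between diaphragm and skin and -0.22 to 0.26 against both. limma voom gave 2.05 for Panx1 against diaphragm and -0.11 and -0.003 for Piezo1 against skin and both. With replicate 1 standing alone for the meninges (added after seeing the data), Piezo1 was -0.17, -0.37 and -0.27 against diaphragm, skin and both, and Trpv4 0.05 against both. Same-numbered libraries did not deviate together (correlations -0.02 to 0.05). With the replicate number as a block, Panx1 against diaphragm was 0.99, no other connexin was called (0) and no member was called. From the far fewer arrangements that a block allows, the adjusted exact permutation p of the Gja4 to Gja1 ratio was 0.0833. Without 1 library that p ran from 0.0214 to 0.107, and that of Piezo2 to Piezo1 from 0.0214 to 0.157. Of other connexins, 1 was called, against 3 with DESeq2, 2 without a filter, with voom or with a robust fit, 0 with 2-tissue fits, 0 without any 1 library and 0 with Meninges replicate 1 alone. Of other channels 0 became 2 with DESeq2 and voom, 4 without a filter, 1 with a robust fit and 1 with Meninges replicate 1 alone. Of PIEZO-associated genes 0 became 1 with DESeq2, voom or no filter. Of scaffold genes 1 became 3 with DESeq2, 2 with voom and 0 with Meninges replicate 1 alone. Of flow and valve genes 4 became 7 without a filter, 2 with 2-tissue fits, 1 with Meninges replicate 1 alone and 2 to 5 without 1 library (2 without Meninges replicate 2 or 3). Calls over all genes also changed with the setting. Against the mean of both, 177 were higher and 79 lower of 14831 in the main fit. Without a filter there were 608 and 186 of 23018, and with voom 573 and 166 of 14831. Without Meninges replicate 2 there were 50 and 33 of 16029, and without Meninges replicate 3 there were 62 and 25 of 16147. With 2-tissue fits, calls against diaphragm rose from 25 and 26 to 72 and 36. Those against skin fell from 111 and 85 to 100 and 58. The causes were not tested. Across all genes the median difference against diaphragm was 0.0474, and 0.21 with voom and -0.204 with Meninges replicate 1 alone. In simulation most changed genes were missed at every size: of 50 each, 11 at 8-fold and 19 at 32-fold were found against diaphragm and 6 and 20 against skin. These genes were drawn at random from all genes tested, so the rates are not those of any single member. The biological coefficient of variation was 1.243 over all genes. It was 0.412 to 0.859 for Gja1, Gja4, Piezo1, Piezo2 and Trpv4, and 2.42 for Panx1.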

Other observations

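Member levels were also set against the LEC markers of the same library, a measure chosen after the data were seen and given without a test. Per 1000 counts of the 10 LEC markers, Gja1 had 17.7, 18.2 and 24.3 counts in meninges, 6.04, 5.67 and 11.6 in diaphragm and 8.61, 7.39 and 5.64 in skin. On this scale every meningeal library was above every other, unlike in CPM. The share of all genes with such a separation on this scale was not computed. A lower LEC marker sum gives a higher value here. That sum was 6716 to 16440 CPM in meninges, 15030 to 20600 in diaphragm and 20730 to 21370 in skin. Fibroblasts also make Gja1, and their part was not tested. Gja4 had 0.468, 0.861 and 0.419 in meninges, 1.53, 2.96 and 5.29 in diaphragm and 2.62, 0.629 and 2.57 in skin. Meninges replicate 2 thus lay above Skin replicate 2 for Gja4, which was not so in CPM. Piezo2 had 15.3, 37.2 and 9.89 in meninges, 20.0, 16.6 and 18.9 in diaphragm and 30.2, 17.7 and 23.9 in skin, with Meninges replicate 2 the highest of the 9. Meninges replicates 1 and 3 were below all diaphragm and skin libraries on this scale too, so the overlap came from Meninges replicate 2, the library with the lowest LEC marker sum. Piezo1 had 6.86, 30.7 and 9.92 in meninges and 5.09 to 8.77 in the other tissues, and Meninges replicate 2 again stood apart.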
